A study of Homo sapiens with 4 samples.

Results

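The mitochondrial ribosome makes the few proteins encoded by mitochondrial DNA, all of them parts of the respiratory chain and the ATP synthase. Its RNA comes from mitochondrial DNA, whereas its proteins are encoded in the nucleus, made in the cytosol and imported, so building it takes the output of both genomes. Proteins of the large subunit, which joins amino acids, carry symbols starting with MRPL, and those of the small subunit, which reads the messenger RNA, symbols starting with MRPS. Some descend from bacterial ribosomal proteins and others are found in mitochondria only.

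The genes described here were all those whose symbol is MRPL or MRPS followed by a number and, at most, a letter from A to C. The table held 91 transcript clusters (groups of probes for one transcribed region) under such symbols. The brightest cluster of each gene was kept, which left 75 genes of 25847, 48 of the large and 27 of the small subunit. They were measured in Hut78 cells, an established human line derived from a T-cell lymphoma of the skin, on 4 Affymetrix Human Transcriptome Arrays 2.0. The control group was 2 arrays of untreated cells, and the other was 2 arrays of cells exposed to 50 µM ribavirin, a guanosine analogue used against viruses, for 120 h. All the cells were grown in RPMI medium with fetal bovine serum, and no culture time is stated for the control. The comparison asks which genes differ with the drug.

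Values are log2 summaries per cluster, so that a difference is a ratio. The gene medians of the 4 arrays lay between 4.20 and 4.30, and 6 of the 75 genes (MRPL23, MRPL34, MRPL43, MRPL52, MRPS18C and MRPS36) had a control mean no higher than that of the brightest background probe set, 5.20. Of 13 T-cell markers 10 fell, with a median change of -0.63 over the list, from -0.43 (CD3D) to -2.39 (CD5) among the falls. CD3G fell by 1.16, LCK by 1.03 and CD4 from 5.56 into the background range (4.54), where CD2 and CD28 stood in both groups. Among markers of other cells, 7 of 8 myeloid and 4 of 5 fibroblast genes were in the background range in control, and the myeloid CD68 rose out of it, from 4.89 to 5.54. The B-cell genes CD79A (11.18 in control), BLK (7.14) and CD79B (7.07) and the epithelial genes KRT8 (8.12), EPCAM (7.81) and CDH1 (7.75) were above it. Of these CD79A, CD79B, KRT8 and CDH1 fell. The part of these markers in the results below was not tested. In such bulk RNA, fewer cells of a type and less RNA per cell cannot be told apart. No label says that the arrays of a group came from separate cultures, so p-values measure the spread between these 4 samples alone, and that spread may be technical.

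With ribavirin 14 mitochondrial ribosomal protein genes rose, 6 fell and 55 did not pass (limma, Benjamini-Hochberg adjusted p under 0.05 over all 25847 genes). The rises reached 1.04 on the log2 scale (MRPL42) and the falls -0.80 (MRPS27). Over all genes tested 15.2% changed, 9.34% up and 5.88% down. All 75 lay among the 12924 genes above the median level, where 18.2% rose and 10.0% fell by the same threshold. The shares here, 18.7% and 8.0%, were close to those of such genes, so the counts do not set the mitochondrial ribosomal genes apart. Their median change was 0.03, beside 0.03 for the genes above the median level and -0.05 for all genes.

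Both ribavirin arrays lay above both controls for 31 of the 75 genes and below both for 19, while the groups overlapped for 25. Over all genes the shares were 24.1% above and 35.8% below, and above the median level 41.0% and 31.8%. The groups were apart in all 20 genes that passed, but also in 30 of the 55 that did not. A low p with 2 arrays a group favours groups that are apart, so this adds no support to a call. The median size of a member's change was 0.19. The median gap was 0.11 between the 2 control arrays and 0.08 between the 2 ribavirin arrays. For genes above the median level the same figures were 0.21, 0.09 and 0.09. No member passed in limma without control replicate 1, where 0.0851% of all genes rose and 0.0155% fell. None passed without control replicate 2 either, where 0.0851% rose and 0.0193% fell. Without ribavirin replicate 1 the count was 1 rise and 1 fall (MRPL48 and MRPS27), beside 3.22% and 1.37% of all genes. Without ribavirin replicate 2 it was 9 rises and 1 fall, beside 5.53% and 2.21%. With all 4 arrays 33 of the 75 reached an unadjusted p under 0.05, as did 29.5% of all genes and 47.3% of those above the median level. Scaling moved the split of 14 up and 6 down to 10 and 7 with quantile normalization (7.5% and 7.72% of all genes). With median-centred arrays it moved to 17 and 2 (11.2% and 4.0%). The median change of the members turned to -0.07 with quantile normalization, beside -0.005 for all genes. With median-centred arrays it was 0.10, beside 0.02. Without control replicate 1 it was 0.08, beside -0.07 for all genes, and without control replicate 2 -0.002, beside -0.02.

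**Figure D1:**
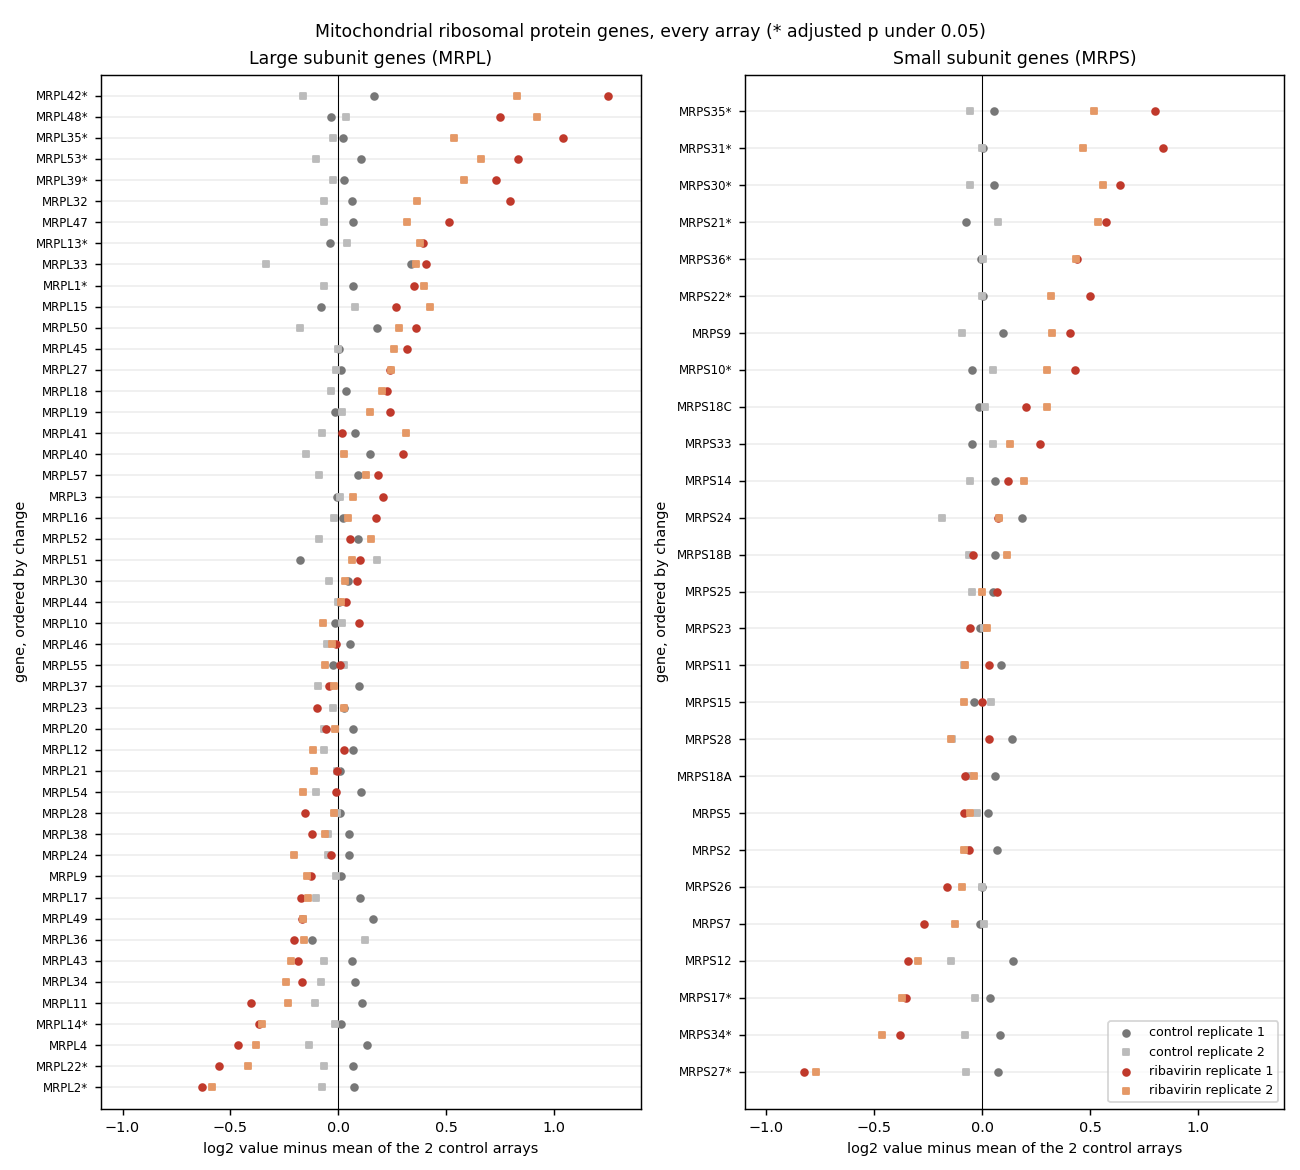
Log2 value of each gene in each of the 4 arrays, minus the mean of the 2 control arrays, for 48 large subunit genes (left) and 27 small subunit genes (right), ordered by change; an asterisk marks an adjusted p under 0.05. In both subunits the ribavirin points run from clearly below to clearly above the control points, and most genes in the middle overlap with the controls.

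Large and small subunit genes both held rises and falls. Of 48 large subunit genes 7 rose and 3 fell (14.6% and 6.25%). Of 27 small subunit genes 7 rose and 3 fell (25.9% and 11.1%). The shares above the median level, 18.2% up and 10.0% down, lay between those of the 2 subunits. Over all genes they were 9.34% and 5.88%. The median change was 0.04 for the large and 0.03 for the small subunit, and the quartiles lay from -0.10 to 0.29 and from -0.07 to 0.37. With quantile normalization (7.5% of all genes up and 7.72% down) the counts were 5 up and 4 down in the large subunit. In the small subunit they were 5 and 3. The medians of the large and small subunit were then -0.06 and -0.07. With median-centred arrays (11.2% and 4.0% of all genes) the counts were 10 and 1, and 7 and 1. Symbols do not always name the place of a protein: MRPS30 and MRPS18A sit in the large subunit, and MRPS36 is now counted as a part of the 2-oxoglutarate dehydrogenase complex (current symbol KGD4). By place, 8 of 50 large subunit genes rose and 3 fell, and 5 of 24 small subunit genes rose and 3 fell, with medians of 0.04 and 0.01. The difference between the subunits was not tested, since the genes of a subunit are not replicates.

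**Figure D2:**
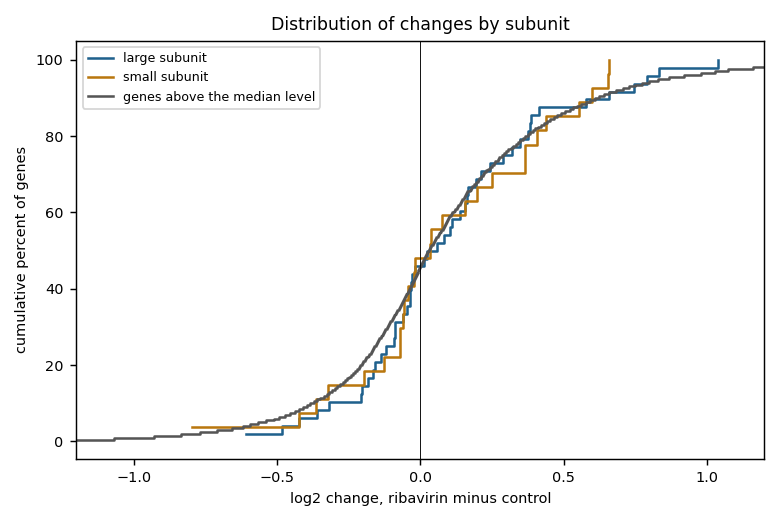
Cumulative percent of genes (vertical axis) at or below each log2 change with ribavirin (horizontal axis) for large subunit genes, small subunit genes and the 12924 genes above the median level. The 3 curves have medians of 0.04, 0.03 and 0.03.

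In the large subunit the rises were MRPL42, MRPL48, MRPL35, MRPL53, MRPL39, MRPL13 and MRPL1. MRPL42, a mitochondria-specific protein, read 9.39 and 9.06 in the control arrays and 10.47 and 10.05 in the ribavirin arrays, 2.05-fold higher (change 1.04, SE 0.18, limma adjusted p = 0.0213). Its groups did not overlap, but the gaps within each group were wide. The cluster kept for MRPL42 is annotated with a noncoding transcript. Its other cluster, annotated with the coding one, read 9.16 and 9.09 in control and 9.97 and 9.74 with ribavirin (change 0.73). The pseudogene MRPL42P5, whose probes may share sequence with MRPL42, also rose, by 1.09 (SE 0.08, limma adjusted p = 0.00337), from 6.002 and 5.89 to 6.99 and 7.08, so signal from gene and pseudogene cannot be told apart.

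MRPL48, a mitochondria-specific protein of the crown of the large subunit called the central protuberance, rose from 7.09 and 7.17 to 7.88 and 8.05 (change 0.83, SE 0.09, limma adjusted p = 0.00624). MRPL39, mitochondria-specific and related to threonyl-tRNA synthetase, rose from 8.77 and 8.72 to 9.48 and 9.33 (change 0.66, SE 0.08, limma adjusted p = 0.00948). MRPL53, also mitochondria-specific, rose from 7.55 and 7.34 to 8.28 and 8.11 (change 0.75, SE 0.11, limma adjusted p = 0.0131). In all 3 genes the groups lay further apart than the arrays within either group. MRPL35, which has a bacterial counterpart, read 6.48 and 6.43 in control and 7.50 and 6.99 with ribavirin (change 0.79, SE 0.17, limma adjusted p = 0.0397). Its ribavirin arrays were far apart, and the call ended with quantile normalization. MRPL13 rose from 5.48 and 5.55 to 5.91 and 5.89 (change 0.38). MRPL1, which forms the mobile stalk beside the site where spent tRNA leaves, rose from 5.996 and 5.86 to 6.28 and 6.33 (change 0.37), and this call too ended with quantile normalization. Both are counterparts of bacterial proteins, and their rises were small, 1.31-fold and 1.30-fold.

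The falls in the large subunit were MRPL2, MRPL22 and MRPL14, all with bacterial counterparts. MRPL2, next to the centre where peptide bonds form, fell from 8.77 and 8.62 to 8.07 and 8.11 (change -0.61, SE 0.08, limma adjusted p = 0.0115). MRPL22, which lines the tunnel through which the new protein leaves, fell from 7.06 and 6.92 to 6.44 and 6.57 (change -0.48, SE 0.09, limma adjusted p = 0.0262). MRPL14, at the face that meets the small subunit, fell from 8.56 and 8.53 to 8.18 and 8.19 (change -0.36, SE 0.07, limma adjusted p = 0.0274). In each, both ribavirin arrays lay below both controls. The calls of MRPL22 and MRPL14 ended with median-centred arrays.

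Among small subunit symbols the rises were MRPS35, MRPS31, MRPS30, MRPS21, MRPS36, MRPS22 and MRPS10. MRPS30, the protein that sits in the large subunit, read 12.26 and 12.15 in control and 12.85 and 12.77 with ribavirin (change 0.60, SE 0.08, limma adjusted p = 0.0105). The cluster kept for MRPS30 carries no coding RefSeq accession, and the cluster that does changed by 0.68. MRPS21, counterpart of a bacterial protein, rose from 8.23 and 8.38 to 8.88 and 8.84 (change 0.55, SE 0.08, limma adjusted p = 0.0145). MRPS36 read 5.01 in both controls, within the background range, and 5.45 and 5.44 with ribavirin (change 0.44, SE 0.07, limma adjusted p = 0.0159). Its groups did not overlap.

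The mitochondria-specific MRPS35 rose from 7.71 and 7.60 to 8.45 and 8.17 (change 0.66, SE 0.12, limma adjusted p = 0.0224). MRPS31, also mitochondria-specific, stood at 7.45 and 7.44 in control and 8.29 and 7.91 with ribavirin (change 0.65, SE 0.13, limma adjusted p = 0.0342). MRPS22, a mitochondria-specific protein as well, read 5.38 and 5.37 in control and 5.87 and 5.69 with ribavirin (change 0.41). As in MRPL35, the ribavirin arrays of these 3 genes lay further apart than the controls. MRPS10, with a bacterial counterpart, passed just inside the threshold (limma adjusted p = 0.0475), from 10.79 and 10.89 to 11.27 and 11.14. The calls of MRPS31 and MRPS10 ended with quantile normalization.

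The largest fall of all was in MRPS27, a mitochondria-specific RNA-binding protein with pentatricopeptide repeats. It read 10.52 and 10.36 in control and 9.62 and 9.67 with ribavirin, 1.74-fold lower (change -0.80, SE 0.08, limma adjusted p = 0.00618). MRPS34, also mitochondria-specific, fell from 9.48 and 9.31 to 9.01 and 8.93 (change -0.42, SE 0.09, limma adjusted p = 0.0359). MRPS17, with a bacterial counterpart, fell from 7.91 and 7.84 to 7.52 and 7.50 (change -0.36, SE 0.07, limma adjusted p = 0.0302). The groups were apart in all 3, and the calls of MRPS34 and MRPS17 ended with median-centred arrays.

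**Figure D3:**
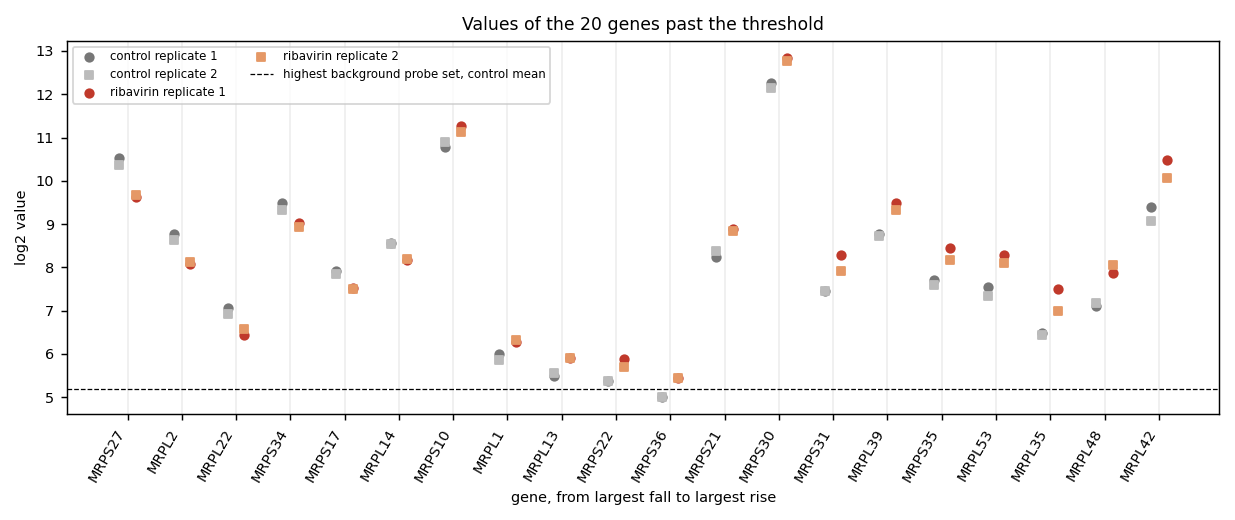
Log2 values of the 20 genes past the threshold in each of the 4 arrays, ordered from MRPS27, the largest fall, to MRPL42, the largest rise; the dashed line is the highest control mean of a background probe set, 5.20. Groups are apart in all 20 genes, which a low p with 2 arrays a group favours, and also in 30 of the 55 that did not pass. Heights cannot be compared between genes because each has its own probes.

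The genes can also be grouped by the nomenclature of ribosomal proteins, as named after a bacterial counterpart or as specific to mitochondria. These classes are not strictly descent. Of the MRPS18 paralogues, MRPS18A and MRPS18B count as mitochondria-specific and MRPS18C as having a bacterial counterpart. Of 44 with a bacterial counterpart 5 rose and 4 fell, with a median change of -0.03. Of 30 specific to mitochondria 8 rose and 2 fell, with a median of 0.09. Within the large subunit by place, 5 of 20 mitochondria-specific genes rose and none fell at the threshold, against 3 up and 3 down of 30 with a bacterial counterpart. In the small subunit the figures were 3 up and 2 down of 10, against 2 up and 1 down of 14. Among all genes above the median level, 18.2% rose and 10.0% fell. The classes hold few genes, and the difference between them was not tested.

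Of the 55 genes that did not pass, those just outside the threshold were led by MRPL47 and MRPL45, both at the mouth of the exit tunnel, where MRPL45 attaches the ribosome to the inner membrane. MRPL47 read 8.73 and 8.60 in control and 9.17 and 8.98 with ribavirin (change 0.41, limma adjusted p = 0.0519), and it passed under several of the other settings. MRPL45 read 12.31 in both controls and 12.63 and 12.56 with ribavirin (change 0.29, limma adjusted p = 0.0559). MRPS9 (change 0.37) and MRPL4 (change -0.42) followed, with limma adjusted p = 0.0619 and 0.0655. MRPL15 (change 0.35, limma adjusted p = 0.0785) passed with median-centred arrays, and both it and MRPL27 (change 0.24, limma adjusted p = 0.0787) passed with the genes below the median level left out. MRPL15 and MRPL27 have bacterial counterparts. MRPL11, at the docking site of translation factors, and MRPS12, at the decoding site, changed by -0.32 each and did not pass (limma adjusted p = 0.129 and 0.135). Of the 3 MRPS18 paralogues, MRPS18C changed by 0.25 (limma adjusted p = 0.0902), MRPS18A by -0.06 and MRPS18B by 0.04, the last 2 with overlapping groups and a sign that turned under some settings.

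For 10 genes the table held more than 1 cluster, and for 7 the brightest, kept one carried no coding RefSeq accession (MRPL10, MRPL11, MRPL12, MRPL30, MRPL42, MRPL49 and MRPS30). With the cluster of the coding transcript preferred, 15 genes rose and 6 fell (9.42% and 6.05% of all genes), and all 20 calls above were among them. The added one was MRPL47. It has only 1 cluster, so its own values stayed the same and its call moved with the fit over all genes. MRPL11 moved from -0.32 to -0.18 and MRPL49 from -0.17 to -0.23. MRPS18B has 7 clusters, 6 of them from alternative haplotypes of its region with equal values.

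Nuclear genes for mitochondrial proteins often share promoter elements bound by ETS-family factors such as GABP, by YY1 and by NRF1. RefSeq promoters (GRCh38.p14, 250 bases before to 50 after the start) were found for 66 of the 75 genes, but not for MRPL2, MRPL10, MRPL13, MRPL15, MRPL21, MRPL23, MRPL35, MRPS28 and MRPS36. The letters CCGGAAG, the core of ETS sites, stood on either strand in 27 of the 66 promoters (40.9%), against 10.7% of all 27305 promoters and 14.2% of those of coding genes. The letters AAGATGG, the core of YY1 sites, stood in 22 (33.3%), against 6.06% and 6.40%. The letters GCGCATG, part of NRF1 sites, stood in 7 (10.6%), against 4.67% and 5.87%. Both of the first pair stood in 8 promoters. Shares for the promoters of genes above the median level, where all members lie, were not computed. The comparison is thus with promoters of genes at any level.

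Both of the first pair of motifs stood before genes that rose and before genes that fell. The ETS core stood in 6 of 11 promoters of genes that rose and in 1 of 5 that fell, and the YY1 core in 3 of 11 and 2 of 5. The median change was 0.11 with the ETS core and -0.02 without it, and 0.01 with the YY1 core and 0.05 without it. A match is a run of letters, not a site. The windows below (100 bases before to 30 after the start) show the largest rise and the largest fall, both with the YY1 core after the start, and MRPL48 and MRPS34, a rise and a fall that both hold the ETS core before it. Capitals mark the matches, and CTTCCGG is CCGGAAG on the other strand.
MRPL42, chr12:93467414-93467543, plus strand: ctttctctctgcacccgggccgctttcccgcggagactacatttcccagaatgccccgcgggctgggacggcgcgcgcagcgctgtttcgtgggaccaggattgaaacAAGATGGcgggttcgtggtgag
MRPL48, chr11:73787774-73787903, plus strand: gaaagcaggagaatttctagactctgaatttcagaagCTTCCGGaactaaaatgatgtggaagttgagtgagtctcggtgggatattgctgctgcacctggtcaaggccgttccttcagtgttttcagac
MRPS27, chr5:72320211-72320340, minus strand: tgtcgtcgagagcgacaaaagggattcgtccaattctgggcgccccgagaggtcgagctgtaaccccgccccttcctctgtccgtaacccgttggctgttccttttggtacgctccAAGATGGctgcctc
MRPS34, chr16:1773105-1773234, minus strand: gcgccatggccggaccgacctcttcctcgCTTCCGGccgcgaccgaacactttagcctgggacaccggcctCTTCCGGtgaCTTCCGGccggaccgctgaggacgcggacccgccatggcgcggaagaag
MRPL42, which rose 2.05-fold, and MRPS27, which fell, thus carry the same AAGATGG word, and MRPS34, which fell, holds 3 copies of the word that MRPL48, which rose, holds once.

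Several of these genes start back to back with another gene. Within 1000 bases and on the opposite strand, 15 such pairs had both genes measured, and the 2 changes had the same sign in 9. MRPL46 and MRPS11 are a pair of their own, with changes of -0.02 each. PSMA2, a proteasome subunit that starts 202 bases from MRPL32, rose from 11.55 and 11.62 to 12.36 in both ribavirin arrays (change 0.78, SE 0.07, limma adjusted p = 0.00463). MRPL32, a large subunit protein that is trimmed by a protease after import, read 6.66 and 6.53 in control and 7.39 and 6.96 with ribavirin (change 0.58, SE 0.16, limma adjusted p = 0.0706). SKA3, a kinetochore gene beside MRPL57, rose by 0.54, and MITD1, beside MRPL30, by 0.34 within or near the background range. PPP1R10, beside MRPS18B, fell by 0.54. MRPL57, MRPL30 and MRPS18B did not pass (changes 0.16, 0.06 and 0.04). PTCD2, 133 bases from MRPS27, changed by -0.02, while MRPS27 fell. These neighbours were named after their values were seen.

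Genes that rose were longer on the genome, with a median span of 22204 bases (13 of the 14, as MRPS36 was not matched), than those that fell (9918.5 bases, n = 6) or did not pass (8015 bases, n = 55). Across 74 genes the change and the span had a Spearman correlation of 0.31, beside 0.15 across 11786 genes above the median level. The correlation with promoter G and C content was -0.24 across 66 genes and -0.09 across 8791. Genes are not independent replicates and share the 4 arrays. The part of length and base composition in the changes was not tested.

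The counts in the lists below stand beside 9.34% up and 5.88% down over all genes, and 18.2% and 10.0% above the median level. With quantile normalization all genes gave 7.5% up and 7.72% down, and with median-centred arrays 11.2% and 4.0%. Subunits of the mitochondrial ribosome that go by other symbols were few. Of 6 measured, DAP3, a GTP-binding protein of the small subunit, rose from 8.85 and 8.76 to 9.17 and 9.21 (change 0.38, SE 0.07, limma adjusted p = 0.0296). None fell, and the list's median was 0.03. This call ended with quantile normalization, where 1 gene of the list fell and DAP3 did not pass, and without any one of the 4 arrays.

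Of 14 mitochondrial translation factors 2 rose and 2 fell (14.3% each), with a median of 0.01. Above the median level 18.2% of genes rose and 10.0% fell. The release factor MTRF1L rose from 6.63 and 6.60 to 7.21 and 7.18 (change 0.58), and the initiation factor MTIF2 from 8.28 and 8.15 to 9.05 and 8.68 (change 0.65). The elongation factor TUFM fell from 12.95 and 12.79 to 12.40 and 12.45 (change -0.45), and the deformylase PDF by 0.49. With median-centred arrays neither fall passed, and with quantile normalization 1 gene rose and 3 fell (7.5% and 7.72% of all genes).

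Of 23 genes of ribosome assembly and ribosomal RNA maturation 4 rose and 2 fell (17.4% and 8.7%), with a median of -0.04. Above the median level 18.2% of genes rose and 10.0% fell. With quantile normalization 2 of the list rose and 3 fell (7.5% and 7.72% of all genes). MTERF3 rose from 6.67 and 6.55 to 7.47 and 7.31 (change 0.79, SE 0.09, limma adjusted p = 0.00773). The GTPase GTPBP10 (0.54), the methyltransferase NSUN4 (0.44) and NGRN (0.45) rose less. ERAL1, a chaperone of the small subunit's RNA, fell from 11.00 and 10.87 to 10.56 and 10.57 (change -0.38), and the methyltransferase MRM1 by 0.49.

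In mitochondrial transcription and RNA handling 5 of 18 genes rose and 1 fell (27.8% and 5.6%), with a median of 0.02. Above the median level 18.2% of genes rose and 10.0% fell. With quantile normalization 3 of the list rose and 3 fell (7.5% and 7.72% of all genes). TFAM, which packs mitochondrial DNA and starts its transcription, rose from 9.66 and 9.70 to 10.85 and 10.67, 1.08 on the log2 scale (SE 0.09, limma adjusted p = 0.00405). SLIRP, the RNA-stabilising partner of LRPPRC, rose by 0.98. PNPT1, an RNA-degrading enzyme, and TRMT10C, part of the enzyme that trims tRNA ends, rose by 0.64 each, and FASTKD3 by 0.32. KIAA0391, the nuclease of the same trimming enzyme as TRMT10C, fell by 0.45. The mitochondrial RNA polymerase POLRMT read 8.82 and 8.65 in control and 8.28 and 8.41 with ribavirin (change -0.39) and did not pass (limma adjusted p = 0.0537).

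Of 17 mitochondrial tRNA synthetases none rose and 1 fell (limma adjusted p under 0.05), TARS2, from 9.40 and 9.32 to 8.79 and 8.62 (change -0.66). The shares were 0% up and 5.88% down, beside 18.2% and 10.0% of genes above the median level. At an adjusted p under 0.1 the count was 1 up and 1 down (12.5% and 9.47% of all genes). Of 13 mitochondrial chaperones and proteases 3 rose and 2 fell (23.1% and 15.4%). The protease LONP1 (0.45) and the chaperones DNAJA3 (0.49) and HSPA9 (0.36) rose, and the chaperones TRAP1 (-0.55) and HSPE1 (-0.40) fell. With quantile normalization that list had 0 up and 3 down (7.5% and 7.72% of all genes).

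Of 10 regulators of nuclear genes for mitochondria 3 rose and 2 fell (30% and 20%), with a median of 0.12. Above the median level 18.2% of genes rose and 10.0% fell. GABPB2 rose from 6.36 and 6.43 to 7.42 and 7.41 (change 1.02, SE 0.07, limma adjusted p = 0.00293) and GABPB1 by 0.63. Both encode partners of the ETS factor GABPA, which did not pass itself (change 0.16, limma adjusted p = 0.246). YY1 did not pass either (change 0.08, limma adjusted p = 0.519). MYC rose from 13.72 and 13.73 to 14.25 and 14.16 (change 0.48). The coactivators PPRC1 (-0.36) and PPARGC1B (-0.56) fell, and NRF1 changed by 0.15 with limma adjusted p = 0.353.

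Cytosolic ribosomal proteins and the respiratory chain were also counted, as lists related to the mitochondrial ribosome in function. They were not taken for a similar change. Of 87 cytosolic ribosomal protein genes 8 rose and 1 fell (9.2% and 1.15%), with a median of 0.06. Over all genes 9.34% rose and 5.88% fell, and above the median level 18.2% and 10.0%. The rises were led by RPL7 (0.98), RPL37 (0.91), RPL26 (0.87) and RPS27 (0.69). The split was 8 up and 7 down with quantile normalization and 13 and 0 with median-centred arrays. Over all genes these scalings gave 7.5% up and 7.72% down, and 11.2% and 4.0%. The list called nuclear oxidative phosphorylation subunits here was drawn by symbol, so it also holds pseudogenes. Among them ATP5G1P5 counts as a fall (change -0.60). Of the 87 genes in this list 6 rose and 10 fell (6.9% and 11.5%), with a median of 0.06. Scaling moved this to 4 and 14 with quantile normalization and to 9 and 8 with median-centred arrays. NDUFV1, of complex I, fell from 11.54 and 11.51 to 10.19 and 10.18 (change -1.35), and ATP5D, of the ATP synthase, from 10.24 and 9.84 to 9.01 and 8.75 (change -1.16). COX5B (-0.68) fell too, and NDUFA12 rose by 0.60. No difference between lists was tested.

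**Figure D4:**
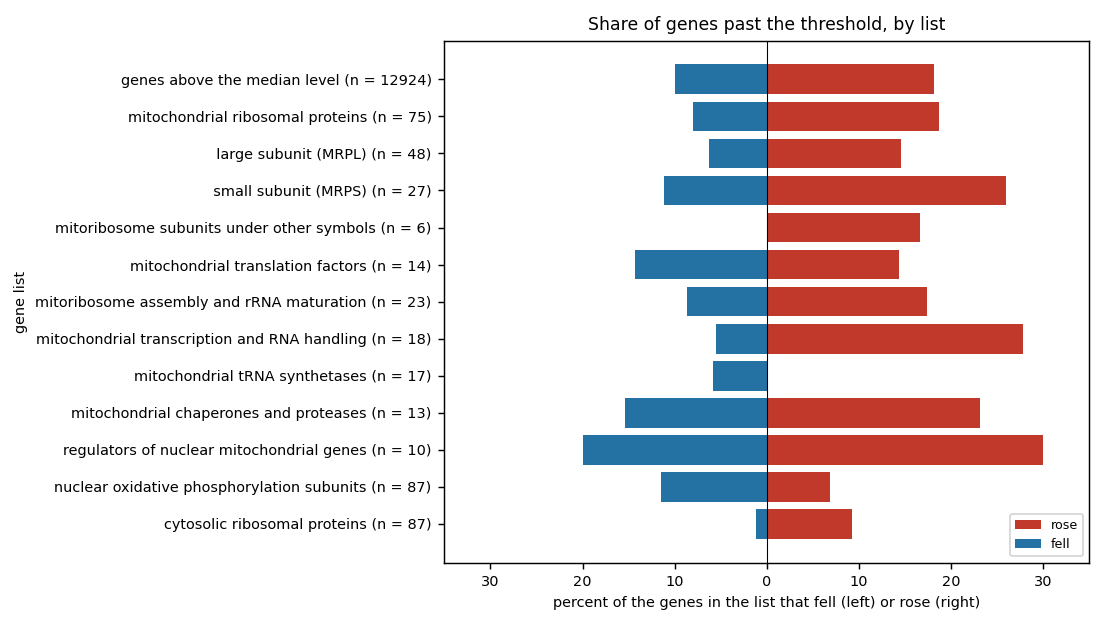
Percent of the genes in each list that fell (bars to the left) or rose (bars to the right) with ribavirin at a limma adjusted p under 0.05; n is the number of genes measured. Mitochondrial ribosomal proteins (18.7% up, 8.0% down) lie close to the 12924 genes above the median level (18.2% and 10.0%).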

How the data were processed

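The authors deposited log2 summaries per probe set, and the name of their table gives SST-RMA as the method. Expression Console (Affymetrix) and RMA are listed in the submitters' processing notes, while the design text of the series credits the Exon Array Computational Tool. Of versions, genome build and filters nothing is given in the sources used here. Per the labels' protocols, 100 ng of Trizol-extracted RNA was amplified with a kit made for fixed tissue. A second deposited table held identical log2 values and was used for this check only.

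Of 67528 transcript clusters, 33444 carried 1 gene symbol, and each of 25847 genes was represented by its brightest cluster on average. Groups came from the sample titles. Ribavirin was compared with control in limma 3.58.1 (R 4.3.3), with lmFit and eBayes, no covariate, 2 residual and 3.19 prior degrees of freedom, two-sided tests and Benjamini-Hochberg adjustment over all genes. SE is the moderated one, and 0.05 the threshold. The background range was set by 23 background probe sets. Lists are described by counts and medians, with no test.

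Named were all members past the threshold, the 3 with the smallest p in each direction among the others, the MRPS18 paralogues, MRPS30 and MRPS36, members whose call changed under an alternative, and in each other list all calls up to 6 or the 4 with the smallest p, with MYC, NRF1, TFAM and POLRMT. Neighbouring genes, the pseudogene MRPL42P5, GABPA and YY1 were named after their values were seen. Members and lists were chosen with earlier results of these data known. MRP63, which is MRPL57 here, and FASTKD5 matched no symbol in the lists. RefSeq tables (GRCh38.p14) gave names, spans, neighbours and promoters, the first listed promoter of a gene being used.

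Alternatives were an intensity trend, robust variances, quantile normalization, median centring, testing the brighter genes alone (at or above the median), averaging clusters, a replicate block, thresholds of 0.1 and 0.01, leaving out each array, and subunits by place. Preferring coding clusters was added after seeing the data. Data were also simulated for the comparison of ribavirin with control (25847 genes). There limma recovered 0 of 50 genes changed 1.25-fold, 3 of 50 at 1.5-fold, 36 of 50 at 2-fold and 47 of 50 at 4-fold. It made 7 false calls. Only these genes were changed, a far smaller share than the 15.2% called in the data. The adjustment was therefore stricter than in the data, where MRPL14 passed at 1.28-fold, and the recovered shares do not carry over.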

Additional observations from a re-analysis of the deposited data

How the results depend on the processing

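With 2 arrays a group the calls are fragile. None of the 20 calls changed sign under the alternatives run. Leaving out each array in turn gave from 26 to 2001 for genes changed in all, 0 to 10 mitochondrial ribosomal genes, 0 to 6 of the large and 0 to 4 of the small subunit. The same gave 0 to 2 translation factors, 0 to 1 assembly genes, 0 to 4 of transcription and RNA handling, 0 to 1 tRNA synthetases, 0 to 2 regulators, 0 to 5 cytosolic ribosomal proteins and 0 to 3 oxidative phosphorylation subunits, and 0 for both subunits under other symbols and chaperones. The lone array left in a group was assumed to vary like the other group. With the threshold at 0.01, genes changed came to 1314, with 3.46% of all genes up and 1.62% down. The counts were 3 members (2 large, 1 small), 0 subunits under other symbols, 1 translation factor, 1 assembly gene and 2 of transcription. They were 0 synthetases, 2 regulators, 0 chaperones, 5 cytosolic ribosomal proteins and 2 oxidative phosphorylation subunits in the other lists. At 0.1 they were 16 large subunit genes, 2 subunits under other symbols, 2 synthetases, 19 cytosolic ribosomal proteins and 25 oxidative phosphorylation subunits. Without the dimmer genes, which leaves fewer genes to adjust over, they were 16 large subunit genes, 2 under other symbols, 2 synthetases and 19 cytosolic ribosomal proteins. An intensity trend gave 2 under other symbols. Quantile normalization gave 3 synthetases, 3 chaperones and 15 cytosolic ribosomal proteins, and moved the median change of all members to -0.066, the median change of large subunit genes to -0.064 and the median change of small subunit genes to -0.066. Median centring gave 2 under other symbols, 2 translation factors and 2 synthetases, and medians of 0.10, 0.11 and 0.10. The MRPS18A log2 change turned to 0.0050 with centring and ran from -0.12 to 0.0014 with an array left out. The MRPS18B log2 change turned to -0.064 with quantile normalization and ran from -0.043 to 0.12 with an array left out, being -0.025 without control replicate 2. The NRF1 log2 change turned to -0.017 with quantile normalization. The cause was not tested. No label ties same-numbered arrays together. Their deviations correlated at 0.05 across genes, but with 2 arrays a group this cannot show whether they were prepared together. With the replicate number as a block 12 members rose and 3 fell (15 mitoribosomal genes changed), beside 8.10% and 4.82% of all genes, 13 of the 20 calls among them, with 0 subunits under other symbols and 3 chaperones. Preferring coding clusters, an alternative chosen after seeing the data, gave 15 rises and 6 falls.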
